A study of Mus musculus with 4 samples.

Results

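A set of 9 genes for transcription factors and cofactors that direct the epidermal program, Trp63, Klf4, Grhl1, Grhl3, Ovol1, Prdm1, Hopx, Zfp750 and Gata3, were followed in newborn mouse epidermis carrying 1 or 2 floxed Mettl14 alleles beside a K14Cre transgene. The genes were taken by name, the values of all transcript rows carrying each symbol were summed, and all 9 were found among the 45803 symbols of the deposited table. Epidermal keratinocytes at postnatal day 0 were sequenced in 4 libraries. The 2 control libraries carried the genotype K14Cre,Mettl14F/+, with the Cre transgene, 1 floxed and 1 intact Mettl14 allele, and the 2 cKO libraries carried K14Cre,Mettl14F/F, with the same transgene and both alleles floxed. The comparison asked what changes when METTL14, the partner of the RNA methyltransferase METTL3 that places N6-methyladenosine (m6A) on transcripts, is targeted in keratinocytes. All 4 libraries thus carried Cre. The K14 promoter drives Cre in basal keratinocytes and their descendants, so other cell types in the sample keep Mettl14.

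The epidermis renews from a basal layer whose cells leave the basement membrane, stop dividing and pass through spinous and granular states. p63, the product of Trp63, is the master regulator of the basal keratinocyte and is made mainly as ΔN forms that lack the amino-terminal activation domain of the TA forms. Zfp750, Klf4, Grhl1, Grhl3, Ovol1, Prdm1 and Hopx act later, during exit from the basal state or in the terminal program, and Zfp750 and Klf4 are known to lie downstream of p63. Gata3 serves the barrier and the inner root sheath of the hair follicle, and is also a factor of T cells.

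Levels are in FPKM, fragments per kilobase of transcript scaled to library size, a scale on which levels of different genes can be set side by side. Depths implied by the spacing of low values were 16884000 to 25604500 reads or fragments per library, and the 9 genes held an implied 583 to 13257 reads each in a library. Keratinocyte markers were abundant in every library, with Krt14 at 1434.96 to 2549.52 FPKM and Krt10 at 5382.20 to 15341.64 FPKM, while Krt1 was listed at 0 in all 4. A listed 0 is not taken here as absence of the RNA, because no source used here gives how reads were assigned. Mettl14 itself measured 7.0, 6.4, 5.89 and 3.79 FPKM in control 1, control 2, cKO 1 and cKO 2, lower in both cKO libraries, with a log2 difference of -0.42 ± 0.26 (SE, adjusted p = 0.959, limma). Reads from exons outside the floxed part would still be counted for it. A gene was tested when 2 or more libraries reached 1 FPKM, which 13817 genes did. Limma called 0 of them at an adjusted p of 0.05, with a smallest adjusted p of 0.456, 686 genes at an unadjusted p under 0.05 (4.96%) and 0 calls by limma-voom on recovered reads. With 1 library left out, 13 genes passed without control 1, 37 without control 2, 52 without cKO 1 and 7 without cKO 2, none of them among the 9. Whether libraries of a group stem from different animals is not in the labels, and the p-values speak only of the spread among these 4 libraries. An exact permutation test of 2 against 2 libraries cannot give a two-sided p below 0.333.

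The transcripts of Trp63 are shown first, because the gene makes its protein forms by the choice of start and of last exon and the table separates them. Sequences are from GENCODE M21 on GRCm38, plus strand, 5′ to 3′. The first 30 coding bases, with the start codon in capitals, mark the downstream start that gives ΔN forms (Trp63-201, chr16:25802060-25802062) and the upstream start that gives TA forms (Trp63-206, chr16:25684290-25684292).
Trp63-201 coding start: ATGttgtacctggaaaacaatgcccagact
Trp63-206 coding start: ATGaattttgaaacttcacggtgtgccacc
The transcription starts of these 2 classes lie 118.2 kb apart. Trp63-201 and Trp63-205 are both ΔN transcripts of 12 exons that run to the last exon and differ by 12 bases at the end of the sixth exon (chr16:25866200-25866211), shown in capitals.
Trp63-201 with the 12 bases: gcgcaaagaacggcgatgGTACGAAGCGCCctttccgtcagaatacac
Trp63-205 without them: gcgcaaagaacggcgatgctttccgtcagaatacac
The carboxyl terminus is set further on. The coding ends, with the stop codon in capitals, are those of the α form (Trp63-201, chr16:25889302-25889304), of a form that skips the exon before the last and so ends earlier in the last exon (Trp63-202, chr16:25889021-25889023), and of a form that ends in an exon of its own (Trp63-204, the γ type, chr16:25876739-25876741).
Trp63-201 coding end: cagcagcgtatcaaagaggaaggagaaTGA
Trp63-202 coding end: tgcagcattgtcaggatttggcaagtcTGA
Trp63-204 coding end: aaccccccaaaccactccgtgtacccaTAG
A further pair of annotated transcripts runs past an exon end into an intron and stops there. The last 15 exonic bases are followed in capitals by the first 15 bases that are intronic in Trp63-201, for Trp63-203 (chr16:25866212-25866226) and Trp63-206 (chr16:25820643-25820657).
Trp63-203 exon end passed: atggtacgaagcgccGTAAGTAGATGTAGT
Trp63-206 exon end passed: tcagccacctggacgGTAAGAGAGTCTGAC

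Trp63 (chr16:25683763-25892102, plus strand) measured 99.59 and 108.94 FPKM in the controls and 76.28 and 76.76 FPKM in the cKO libraries. Both cKO libraries lay below both controls, and the cKO pair differed by less than 1 FPKM. Group means were 104 ± 6.61 and 76.5 ± 0.339 FPKM (SD, n = 2 each). The log2 difference, taken as for all genes on log2(FPKM + 1) and cKO minus control, was -0.44 ± 0.22 (SE, adjusted p = 0.959, limma), and 8.3% of all genes tested lay at least as low. It was -0.38 between the libraries numbered 1 and -0.50 between those numbered 2. Leaving out 1 library at a time kept the difference between -0.504 and -0.376.

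The transcripts of Trp63 differed in how their libraries lay. Trp63-205, the α form without the 12 bases, measured 38.5 and 34.96 FPKM in the controls and 20.98 and 26.71 FPKM in the cKO libraries. Both cKO libraries lay below both controls, with a log2 difference of -0.61 ± 0.25 (SE, unadjusted p = 0.0457, adjusted p = 1, limma over 27201 transcripts, of which 4.19% had an unadjusted p under 0.05 and 0 passed). Trp63-201, the α form with them, measured 39.31, 60.78, 39.82 and 39.74 FPKM in control 1, control 2, cKO 1 and cKO 2. Control 2 alone stood high and the groups overlapped. Its log2 difference of -0.29 ± 0.29 (SE, adjusted p = 1, limma) was 0.017 without control 2 and -0.599 without control 1. Trp63-205 made up 49.5%, 36.5%, 34.5% and 40.2% of the summed pair, so control 1 stood high and this share overlapped between the groups. No source used here gives how reads were divided among transcripts that share nearly all their bases.

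The other forms were minor. Trp63-204, the γ type, measured 7.63 and 7.31 FPKM in the controls and 5.87 and 6.26 FPKM in the cKO libraries, without overlap. Its log2 difference was -0.26 ± 0.26 (SE, adjusted p = 1, limma). Both intron-ending transcripts differed more between library numbers than between genotypes, and both were lower in the cKO library within each number. The differences between libraries numbered 1 and between those numbered 2 were -0.68 and -0.48 for Trp63-203. They were -0.18 and -0.53 for Trp63-206. Trp63-203 stood at 8.01 and 4.61 FPKM in control 1 and cKO 1 and at 2.96 and 1.84 FPKM in control 2 and cKO 2, with a log2 difference of -0.58 that was 0.011 without control 1. Trp63-206 stood at 5.03 and 4.34 FPKM in control 1 and cKO 1 and at 2.07 and 1.13 FPKM in control 2 and cKO 2, with a log2 difference of -0.35 that was 0.136 without control 1 and 0.312 without cKO 2. Together they held 13.1%, 4.6%, 11.7% and 3.9% of Trp63 in control 1, control 2, cKO 1 and cKO 2. Across all genes, the share of the table in transcripts annotated as retained introns was 4.66%, 2.83%, 4.01% and 2.28% in the same order, higher in the libraries numbered 1 as well; its part in the Trp63 values was not tested.

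ΔN forms made up nearly all of Trp63 in both genotypes. Their share was 93.8%, 97.3%, 93.4% and 97.1% in control 1, control 2, cKO 1 and cKO 2, which overlapped between the groups. Without the intron-ending transcripts the share was 98.7%, 99.2%, 99.0% and 98.5%, and the groups overlapped again. The α forms held 78.1%, 87.9%, 79.7% and 86.6%, also overlapping. Of 8 annotated Trp63 rows 7 had a value. Among full-length TA forms, Trp63-202 was listed at 0.61 to 1.01 FPKM, Trp63-207 at 0.05 to 0.24 FPKM and Trp63-208, the TA α form, at 0 in all 4 libraries.

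**Figure D1:**
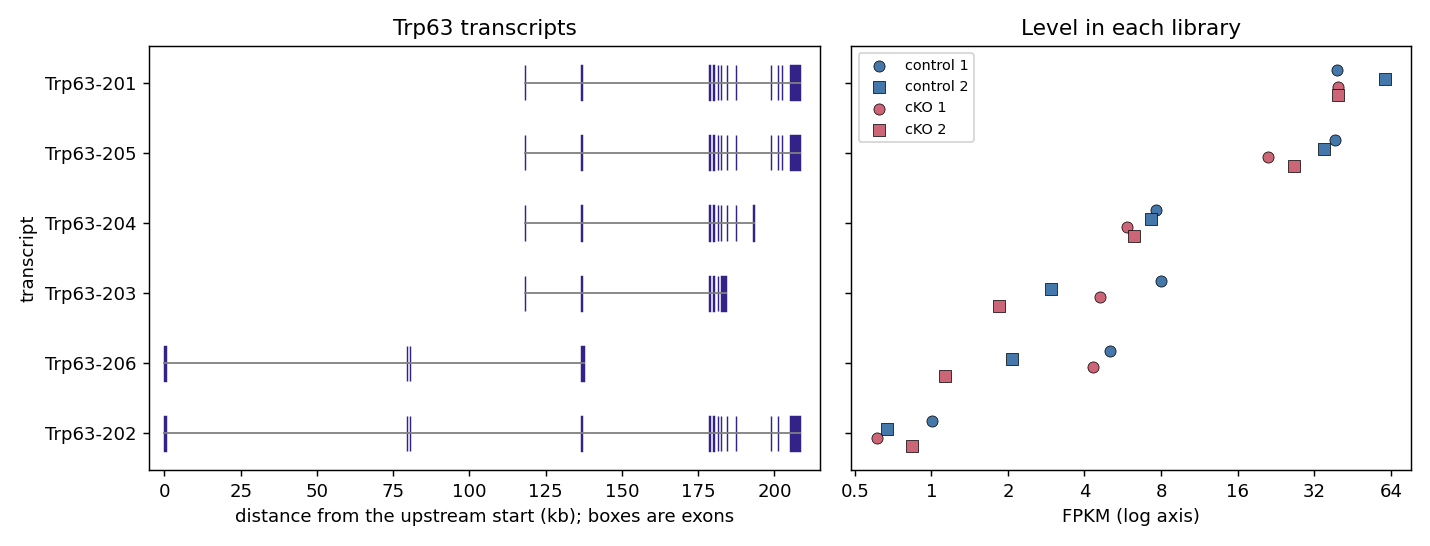
Exons of the 6 Trp63 transcripts with at least 1 FPKM in a library, by distance in kb from the upstream start (left), and their level in FPKM in each library on a log axis (right; blue, control; red, cKO; circles, libraries numbered 1; squares, libraries numbered 2). Trp63-205 and Trp63-204 lie lower in both cKO libraries, whereas Trp63-203 and Trp63-206 separate circles from squares.

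The genes whose profile over the 4 libraries was most like that of Trp63 were looked for among 7123 genes with a mean of at least 10 FPKM, by the root mean square distance of centred log2 values. The nearest were Eif4g3 (0.021), a translation initiation factor, Ensa (0.024), a regulator of a mitotic phosphatase, and Oxct1 (0.025), an enzyme of ketone body use. Eif4g3 measured 13.2, 14.89, 10.17 and 10.44 FPKM in control 1, control 2, cKO 1 and cKO 2. In all, 113 of the 7123 genes lay within 0.1 of the Trp63 profile.

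Of the 9 genes, 6 were higher in both cKO libraries than in both controls, where 16.2% of all genes tested were, 1 was lower, where 16.6% were, and 2 overlapped. In either direction 7 of 9 did not overlap, beside 32.8% of all genes. The higher genes were Klf4, Grhl1, Grhl3, Ovol1, Hopx and Zfp750, the lower one was Trp63, and Prdm1 and Gata3 overlapped. The median log2 difference of the 9 was 0.36, beside -0.03 over all genes tested. None passed the test (limma, adjusted p of 0.959 to 1). Ovol1 and Zfp750 had an unadjusted p under 0.05. By transcript, the 9 genes had 28 rows, of which 18 were tested, and of these 7 were higher and 4 lower in both cKO libraries, beside 14.1% and 16.2% of all transcripts tested.

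**Figure D2:**
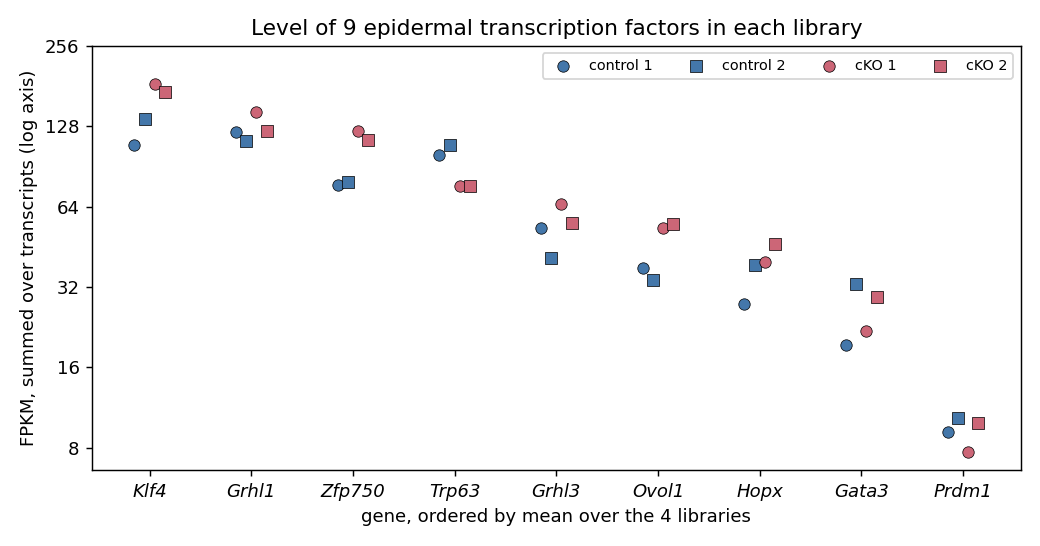
Level of each of the 9 genes in each library, in FPKM on a log axis, genes ordered by mean level (blue, control; red, cKO; circles, libraries numbered 1; squares, libraries numbered 2). Red points lie above blue ones for Klf4, Grhl1, Zfp750, Grhl3, Ovol1 and Hopx, below them for Trp63, and among them for Gata3 and Prdm1.

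Zfp750 (chr11:121510978-121519333, minus strand), a zinc finger factor of terminal differentiation, measured 77.13 and 78.92 FPKM in the controls and 122.81 and 113.59 FPKM in the cKO libraries. The controls were nearly equal and both cKO libraries stood well above them. Group means were 78 ± 1.27 and 118 ± 6.52 FPKM (SD, n = 2 each), a log2 difference of 0.59 ± 0.22 (SE, unadjusted p = 0.0363, adjusted p = 0.959, limma). The difference was 0.66 between the libraries numbered 1 and 0.52 between those numbered 2, and 4.0% of all genes tested lay at least as high. Tbcd, a tubulin folding cofactor, overlaps it on the opposite strand and measured 29.35, 36.96, 22.01 and 33.92 FPKM in control 1, control 2, cKO 1 and cKO 2. The overlap is of whole gene spans, and overlap of exons was not examined. The protocol does not state that strand was kept, so reads from any exonic bases shared by such a pair could not be told apart.

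Klf4 (chr4:55527143-55532466, minus strand), a zinc finger factor needed for the skin barrier, measured 109.21 and 136.0 FPKM in the controls and 184.51 and 172.02 FPKM in the cKO libraries. Both cKO libraries were the highest, and the controls differed from each other by more than the cKO libraries did. Group means were 123 ± 18.9 and 178 ± 8.83 FPKM (SD, n = 2 each), a log2 difference of 0.54 ± 0.25 (SE, unadjusted p = 0.0761, adjusted p = 0.959, limma). Nearly all of it came from Klf4-201, at 108.04, 134.76, 182.16 and 170.61 FPKM in control 1, control 2, cKO 1 and cKO 2. The difference was 0.75 between the libraries numbered 1 and 0.34 between those numbered 2.

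Ovol1 (chr19:5549136-5560646, minus strand), a zinc finger repressor that takes keratinocytes out of the cell cycle, measured 37.75 and 33.96 FPKM in the controls and 53.41 and 55.02 FPKM in the cKO libraries. Each pair was tight and the pairs did not overlap. Group means were 35.9 ± 2.68 and 54.2 ± 1.14 FPKM (SD, n = 2 each), a log2 difference of 0.58 ± 0.20 (SE, unadjusted p = 0.0284, adjusted p = 0.959, limma). It was 0.49 between the libraries numbered 1 and 0.68 between those numbered 2, and 4.2% of all genes tested lay at least as high.

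The order of levels differed between genotypes for Trp63 and Zfp750. In the controls Trp63, at 99.59 and 108.94 FPKM, lay above Zfp750 in both libraries, whereas in both cKO libraries it lay below. Klf4 and Grhl1 had overlapping ranges in the controls, and in the cKO libraries Klf4 stood clear at the top. Grhl1 and Zfp750, next in the cKO order, were separated by less than 1 FPKM at their nearest (122.9 and 122.81 FPKM). Grhl3, Ovol1, Hopx, Gata3 and Prdm1 followed in that order by group mean in both genotypes, with the ranges of Ovol1, Hopx and Gata3 overlapping their neighbours in the controls. Levels ran from the 46.5 percentile of all genes tested for Prdm1 to the 97.2 percentile for Klf4.

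Grhl3 and Grhl1 are Grainyhead-like factors, which control epithelial junctions, and Grhl3 is required for barrier formation and wound closure. Grhl3 (chr4:135541888-135573630, minus strand) measured 53.06 and 41.16 FPKM in the controls and 65.53 and 55.66 FPKM in the cKO libraries. The lower cKO value exceeded the higher control value by a small margin. The log2 difference was 0.36 ± 0.24 (SE, adjusted p = 0.959, limma), and 0.184 without control 2. It was 0.30 between the libraries numbered 1 and 0.43 between those numbered 2.

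Grhl1 (chr12:24572283-24617391, plus strand) measured 121.57 and 113.09 FPKM in the controls and 144.68 and 122.9 FPKM in the cKO libraries. The margin between cKO 2 and control 1 was under 2 FPKM. The log2 difference was 0.18 ± 0.24 (SE, adjusted p = 0.959, limma), 0.067 without cKO 1 and 0.301 without cKO 2.

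The sum over Grhl1 joined 2 transcripts that stood on opposite sides, and setting them apart was not planned. Grhl1-202, with 16 exons, begins at the upstream start, and Grhl1-201, with 14 exons, begins at a downstream one, with coding starts 8.31 kb apart on GRCm38 (chr12:24572439-24572441 and chr12:24580749-24580751). The first 30 coding bases differ between them, with the start codon in capitals.
Grhl1-202 coding start: ATGacacaggagtacgacaacaaaaggccc
Grhl1-201 coding start: ATGgttctccttgatgatgaactgtgtgac
The promoters differ as well, as the 250 bases before each RefSeq start show (GRCm38.p6, plus strand, chr12:24572037-24572286 and chr12:24580469-24580718), in which capitals mark a TATATAA box.
Grhl1 upstream promoter: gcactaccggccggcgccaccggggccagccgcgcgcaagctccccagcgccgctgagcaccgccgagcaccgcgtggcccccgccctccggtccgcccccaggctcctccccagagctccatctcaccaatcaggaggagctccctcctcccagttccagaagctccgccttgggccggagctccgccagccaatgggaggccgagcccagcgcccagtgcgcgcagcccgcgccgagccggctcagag
Grhl1 downstream promoter: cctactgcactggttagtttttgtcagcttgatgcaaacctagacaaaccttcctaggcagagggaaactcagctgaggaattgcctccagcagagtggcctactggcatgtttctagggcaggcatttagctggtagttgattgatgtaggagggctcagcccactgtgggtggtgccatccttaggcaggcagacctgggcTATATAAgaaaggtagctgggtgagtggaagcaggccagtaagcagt
The upstream window is 75.6% G and C with none of the motifs searched. The downstream one is 52.0% G and C and holds TATATAA 47 bases before its RefSeq start. The annotation of Grhl1-201, whose level is given below, begins further downstream, at chr12:24580749. On either strand, TATATAA stood in 3.0% of 32851 RefSeq windows of the same length, and it was added to the search after these windows had been seen.

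Grhl1-202 measured 105.42 and 93.31 FPKM in the controls and 132.6 and 110.09 FPKM in the cKO libraries, higher in both cKO libraries, with a log2 difference of 0.28 ± 0.27 (SE, adjusted p = 1, limma). Grhl1-201 measured 16.15 and 19.78 FPKM in the controls and 12.08 and 12.81 FPKM in the cKO libraries, lower in both, with a log2 difference of -0.49 ± 0.25 (SE, unadjusted p = 0.0904, adjusted p = 1, limma). No source used here gives how reads were divided between these 2 transcripts of the same gene, and their shares rest on that division. The share of Grhl1 from the downstream start was 13.3% and 17.5% in the controls and 8.3% and 10.4% in the cKO libraries, with means of 15.4 ± 3.0% and 9.4 ± 1.5% (SD, n = 2 each). The pairs did not overlap. Among 3925 genes with at least 2 tested protein-coding transcripts, the share of the second most abundant one was lower in both cKO libraries in 17.9%, and the Grhl1 difference had no test of its own beyond the exact limit of 0.333.

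**Figure D3:**
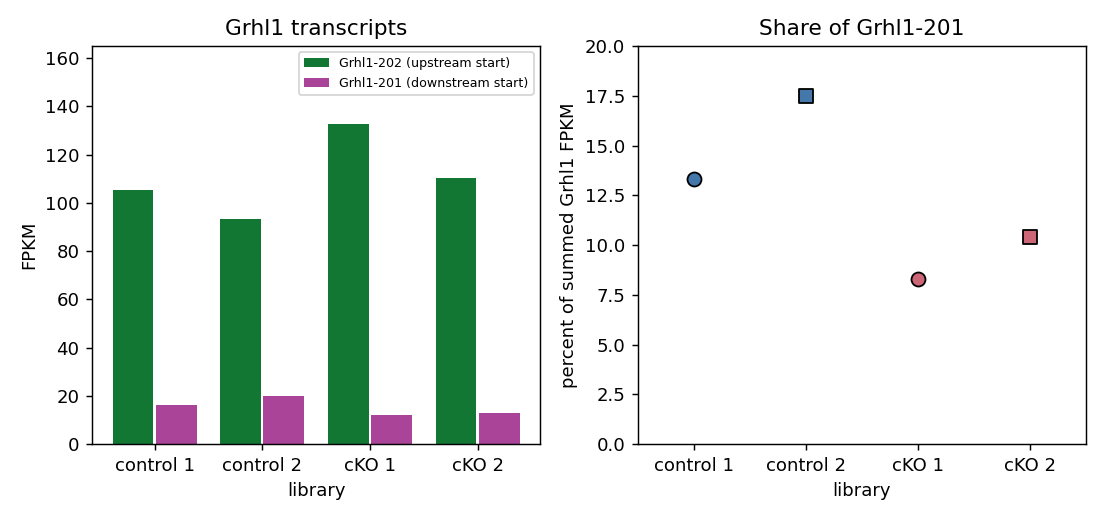
FPKM of the 2 Grhl1 transcripts in each library as bars (left), and the percent of Grhl1 from the downstream start in each library (right). Grhl1-202 is higher and Grhl1-201 lower in the cKO libraries, and the share is 13.3% and 17.5% in the controls against 8.3% and 10.4%. The share rests on a division of reads between the 2 transcripts that no source used here gives.

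Hopx (chr5:77086988-77115121, minus strand), a homeodomain cofactor that does not bind DNA, measured 27.59 and 38.68 FPKM in the controls and 39.59 and 46.55 FPKM in the cKO libraries. Control 1 was the lowest, and control 2 lay just below cKO 1. The log2 difference was 0.38 ± 0.25 (SE, adjusted p = 0.959, limma), 0.147 without control 1 and 0.62 without control 2. Hopx-201, from the upstream of its starts, was the most abundant, at 18.13 and 28.65 FPKM in the controls and 30.4 and 34.8 FPKM in the cKO libraries. Hopx-202 measured 7.84, 7.26, 8.02 and 9.24 FPKM in control 1, control 2, cKO 1 and cKO 2. The antisense gene Hopxos overlaps Hopx and measured 2.66 and 3.3 FPKM in the controls and 1.43 and 1.31 FPKM in the cKO libraries, the opposite order.

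Prdm1 and Gata3 were the genes of the set whose groups overlapped. Prdm1 (chr10:44437177-44528501, minus strand), which encodes the repressor BLIMP1, measured 9.16 and 10.36 FPKM in the controls and 7.72 and 9.89 FPKM in the cKO libraries. Its log2 difference of -0.14 ± 0.22 (SE, adjusted p = 0.959, limma) was 0.020 without cKO 1. Its main transcripts were nearly equal in mean level. Prdm1-201 measured 4.82 and 4.93 FPKM in the controls and 4.47 and 4.05 FPKM in the cKO libraries, lower in both. Prdm1-202 measured 3.99 and 5.3 FPKM in the controls and 2.85 and 5.64 FPKM in the cKO libraries, and exceeded Prdm1-201 in the libraries numbered 2.

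Gata3 (chr2:9857078-9890034, minus strand) measured 19.36 and 32.95 FPKM in the controls and 21.84 and 29.23 FPKM in the cKO libraries. The libraries numbered 2 were higher in both genotypes, by 0.74 on the log2 scale in the controls and 0.40 in the cKO. The log2 difference between genotypes was 0.00 ± 0.31 (SE, adjusted p = 1, limma), from -0.37 without control 1 to 0.368 without control 2. Nearly all of it was Gata3-201, at 18.72, 31.34, 20.35 and 28.54 FPKM in control 1, control 2, cKO 1 and cKO 2.

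**Figure D4:**
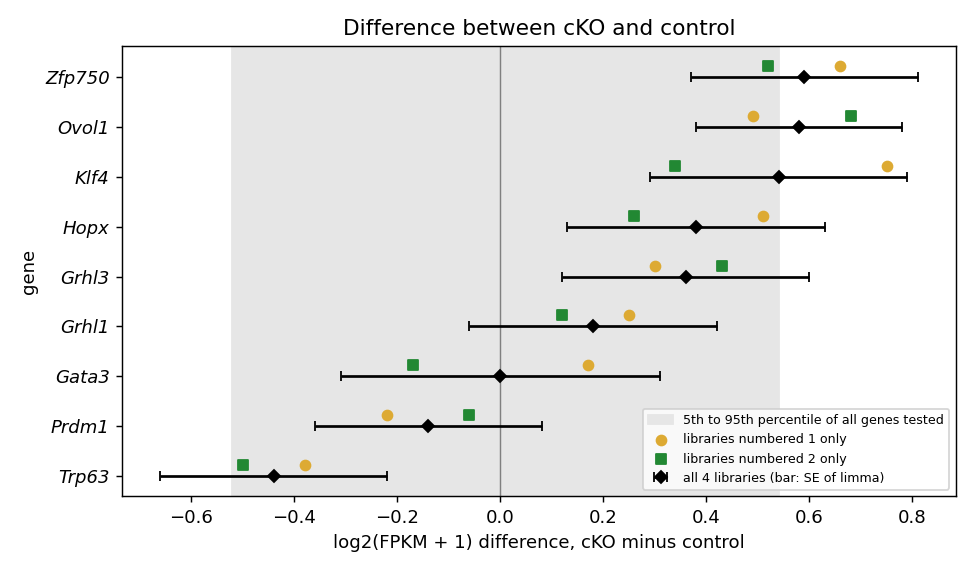
Difference in log2(FPKM + 1), cKO minus control, for the 9 genes, with the SE of limma as bars, and the differences between the libraries numbered 1 (circles) and numbered 2 (squares). The grey band spans the 5th to 95th percentile of all genes tested, -0.52 to 0.54, and Klf4, Ovol1 and Zfp750 lie at or past its upper edge.

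Markers of other cell types differed between the libraries too. Of 8 markers of dendritic epidermal T cells, 7 were lower in both cKO libraries, beside 16.6% of all genes tested. Cd3g and Trdv4 were the most abundant of the 8. The 8 markers summed to 86.3 and 94.1 FPKM in the controls and 43.4 and 49.7 FPKM in the cKO libraries. The 7 markers of Langerhans cells or macrophages summed to 441 and 566 FPKM in the controls and 251 and 417 FPKM in the cKO libraries. Of these 7, 4 were lower in both cKO libraries, beside the same 16.6%. Cd74 (114.23 to 263.16 FPKM) and H2-Ab1 (62.90 to 154.29 FPKM) were the most abundant. Gata3, Prdm1 and Klf4 are known to be expressed in such immune cells as well; the part of these cells in their values was not tested. Inner root sheath and matrix markers summed to 190, 467, 214 and 640 FPKM in control 1, control 2, cKO 1 and cKO 2, high in the libraries numbered 2 like Gata3, and their part in the Gata3 values was not tested either. Keratinocyte markers summed to 25960, 15735, 22488 and 15966 FPKM in the same order, a sum dominated by Krt10. Krt10 and Sbsn were higher in the libraries numbered 1, whereas the basal markers Krt5 and Krt14 were higher in those numbered 2. Within each number both basal markers were lower in the cKO library. Of the 7 keratinocyte markers, 2 were higher and 3 lower within both numbers, beside 31.8% and 37.6% of all genes tested. The part of basal cells in the Trp63 values was not tested. Sebaceous markers summed to 236, 322, 255 and 407 FPKM, melanocyte markers to 516, 445, 397 and 417 FPKM and fibroblast markers to 116, 114, 84.6 and 92 FPKM in the same order. Endothelial markers were near 0, with sums of 0.79 to 1.82 FPKM. In bulk RNA, fewer cells of a type and less RNA per cell cannot be told apart.

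Known targets of p63 lay on both sides. The list joins genes that p63 activates with genes that it represses, so its counts and median carry no single direction. The sign is named here only for Sfn, Cdkn1a and Perp, so these genes do not show how the activated or the repressed genes went as sets. Of 24 such genes, 22 were testable, 0 passed the test (limma), 5 of the tested were higher and 3 lower in both cKO libraries, beside 16.2% and 16.6% of all genes, and the median log2 difference was -0.07. Within both library numbers 6 were higher and 10 lower, beside 31.8% and 37.6% of all genes. Krt5, a basal keratin, measured 897.49 and 1331.99 FPKM in the controls and 500.38 and 967.83 FPKM in the cKO libraries, with overlap. Krt14, its partner, measured 2175.59 and 2549.52 FPKM in the controls and 1434.96 and 2194.87 FPKM in the cKO libraries, also with overlap. Between the libraries numbered 1 and between those numbered 2, the log2 differences were -0.84 and -0.46 for Krt5. They were -0.60 and -0.22 for Krt14. The lower genes, chosen here after their values were seen, were Dst, which encodes the hemidesmosomal linker BPAG1, Fgfr3, a growth factor receptor, and Igfbp3, an IGF binding protein. Dst measured 107.25 and 93.48 FPKM in the controls and 66.41 and 52.46 FPKM in the cKO libraries, a log2 difference of -0.75 ± 0.24. Igfbp3, whose sign is not named here, measured 12.79 and 13.87 FPKM in the controls and 10.36 and 11.07 FPKM in the cKO libraries. The 5 higher genes were Sfn and Perp, among the most abundant of the list, and Cdkn1a, Cldn1 and Evpl, chosen after their values were seen. Sfn, which encodes the cell cycle inhibitor 14-3-3σ and is known to be held down by ΔNp63, measured 582.85 and 658.78 FPKM in the controls and 1047.38 and 1252.38 FPKM in the cKO libraries. Cdkn1a, which encodes the inhibitor p21 and is likewise known to be repressed, measured 75.74 and 86.24 FPKM in the controls and 106.98 and 129.17 FPKM in the cKO libraries. Perp, a desmosomal protein that p63 activates, measured 1567.66 and 1545.70 FPKM in the controls and 2145.08 and 1701.33 FPKM in the cKO libraries.

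The other p53 family genes, partners of p63 and chromatin cofactors formed a list of 20. All 20 were testable and 0 passed the test (limma), with 1 higher and 4 lower in both cKO libraries beside 16.2% and 16.6% of all genes, 3 higher and 11 lower within both library numbers beside 31.8% and 37.6%, and a median log2 difference of -0.12. The lower ones, chosen after their values were seen, were Ezh2, Kmt2a, Ep300 and Hdac2, and the higher one was Kmt2d. Ezh2, the Polycomb methyltransferase that holds back late differentiation genes in basal cells, measured 21.11 and 18.34 FPKM in the controls and 12.95 and 14.77 FPKM in the cKO libraries. Among the most abundant, Hdac2 measured 65.11, 66.09, 64.53 and 54.35 FPKM and Ctbp1 measured 56.59, 69.95, 52.41 and 69.07 FPKM in control 1, control 2, cKO 1 and cKO 2. Kdm1a, a histone demethylase, measured 46.59 to 53.33 FPKM and Hdac3 measured 37.08 to 47.53 FPKM, both with overlap.

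Other epidermal transcription factors showed no common direction. Of 48, all testable, 0 passed (limma), 4 were higher and 7 lower in both cKO libraries, which is no more than the 16.2% and 16.6% of all genes, and the median log2 difference was 0.02. Within both library numbers 15 were higher and 13 lower, beside 31.8% and 37.6%. Klf3, the most abundant and a relative of Klf4, measured 135.09, 111.07, 142.12 and 112.11 FPKM in control 1, control 2, cKO 1 and cKO 2, with overlap. Rxra, a nuclear receptor, measured 75.43, 112.89, 91.36 and 137.61 FPKM in the same order, with overlap. Cebpa, a leucine zipper factor of differentiation, measured 77.16, 105.65, 99.47 and 128.52 FPKM, and Barx2, a homeodomain factor, measured 74.40, 94.92, 93.50 and 114.40 FPKM. Rxra, Cebpa and Barx2 were each higher in the library numbered 2 of both genotypes. Higher in both cKO libraries were Hr, Ehf, Cebpd and Foxn1. Lower in both were Tfap2b, Maf, Runx1, Ets1, Nr3c1, Ahr and Id2. All of these were chosen after their values were seen. Ets1 measured 12.11 and 8.94 FPKM in the controls and 7.9 and 5.15 FPKM in the cKO libraries. Id2 measured 23.29 and 32.2 FPKM in the controls and 15.33 and 23.22 FPKM in the cKO libraries. Hr, a corepressor of the vitamin D receptor, measured 51.43 and 56.53 FPKM in the controls and 82.95 and 91.72 FPKM in the cKO libraries. Ehf, an ETS factor of epithelial differentiation, measured 3.48 and 4.82 FPKM in the controls and 7.87 and 7.76 FPKM in the cKO libraries. Grhl2, the third Grainyhead-like gene and also chosen after its values were seen, measured 27.94 and 34.97 FPKM in the controls and 21.01 and 28.5 FPKM in the cKO libraries, with overlap, and lay lower within both library numbers where Grhl1 and Grhl3 lay higher.

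Known targets of the Grainyhead-like factors had a median log2 difference of 0.17 over 15 testable genes, of which 0 passed (limma), 3 were higher and 2 lower in both cKO libraries beside 16.2% and 16.6% of all genes, and 9 were higher and 2 lower within both library numbers beside 31.8% and 37.6%. The higher ones, chosen after their values were seen, were Rab25, Tgm5 and Evpl, and the lower ones were Epcam and Lmo4. Cdh1, which encodes E-cadherin, measured 176.66 and 164.49 FPKM in the controls and 173.50 and 184.96 FPKM in the cKO libraries, with overlap. Dsg1a, a desmosomal cadherin of the upper layers, measured 428.34, 289.76, 615.28 and 315.49 FPKM in control 1, control 2, cKO 1 and cKO 2, high in the libraries numbered 1. Dsg1b, a close paralog with which it could share reads, was high in the same libraries at 171.61, 92.62, 223.22 and 120.91 FPKM. Ppl, which encodes periplakin, measured 204.03, 176.93, 207.82 and 174.36 FPKM, with overlap.

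Spinous and granular genes, the end of the program that Klf4, Zfp750 and Grhl3 serve, divided by gene. Of 26, 25 were testable and 0 passed (limma), with 7 higher and 2 lower in both cKO libraries beside 16.2% and 16.6% of all genes, 13 higher and 7 lower within both library numbers beside 31.8% and 37.6%, and a median log2 difference of 0.11. Krt10, the spinous keratin, measured 15341.64 and 5382.20 FPKM in the controls and 12142.03 and 6216.68 FPKM in the cKO libraries, and separated by library number. Flg, the filaggrin gene of the granular layer, did likewise at 4127.59, 2454.51, 3187.25 and 1821.90 FPKM in control 1, control 2, cKO 1 and cKO 2. Krtdap, a keratinocyte differentiation protein, measured 3561.50 and 3584.36 FPKM in the controls and 4007.29 and 3616.10 FPKM in the cKO libraries. Calm4, a calcium binding protein of suprabasal cells, measured 1736.64 and 2291.30 FPKM in the controls and 3015.40 and 3202.50 FPKM in the cKO libraries. Tgm3, Sprr1b and the 2 lower genes, Flg2 and Casp14, were chosen after their values were seen. Flg2 measured 597.22 and 367.65 FPKM in the controls and 357.6 and 337.29 FPKM in the cKO libraries. Casp14 measured 118.77 and 121.8 FPKM in the controls and 117.37 and 110.55 FPKM in the cKO libraries. Tgm3, a transglutaminase of the cornified envelope, measured 49.89 and 47.89 FPKM in the controls and 111.52 and 123.49 FPKM in the cKO libraries. Sprr1b, a cornified envelope precursor, measured 39.11 and 41.39 FPKM in the controls and 91.77 and 144.11 FPKM in the cKO libraries. Evpl, Bnc1, Satb1, Tgm1 and Dsg1a each stand in more than 1 of these lists.

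Since METTL14 acts on RNA, the transcripts of the 9 genes were searched for GGACT, a frequent form of the m6A consensus. Over 11705 protein-coding genes the most abundant transcript held a median of 3 copies, or 1.06 per kb. Klf4-201 held 5 (1.65 per kb, the 78.5 percentile) and Prdm1-201 held 7 (1.33 per kb). Trp63-201 and Grhl1-202 held 4 each, at 0.851 and 1.15 per kb. Zfp750 and Gata3 held 3 each. Ovol1, Grhl3 and Hopx-201 held 1 each, and at 0.336 per kb Ovol1 had the lowest density of the 9. Genes higher in the cKO libraries stood both in the upper part (Klf4) and near the bottom (Ovol1, Grhl3) of this scale. The wider consensus DRACH (A, G or T, then A or G, then AC, then A, C or T) gave another order, with a median of 20.1 per kb over the same genes. By its density the 6 genes higher in the cKO libraries stood at the 97.3 (Zfp750), 77.0 (Ovol1), 76.3 (Klf4), 61.2 (Grhl1), 58.2 (Grhl3) and 46.7 (Hopx) percentiles, and Prdm1, Trp63 and Gata3 stood at the 34.0, 27.2 and 12.6 percentiles. DRACH density was not among the features planned, and its relation to the difference over all genes was not tested. These 9 positions are a description with no test. A match is a run of letters, and no methylation was measured in these libraries.

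The number of exons was set beside the same differences. Zfp750 and Hopx-201 have 3 exons, Ovol1 has 4 and Klf4 has 5, and all of these were higher in the cKO libraries. Trp63, lower as a gene sum, has 12 exons in Trp63-201, its most abundant transcript, whose own libraries overlapped, whereas Grhl1-202 and Grhl3 have 16 and were higher. Over all protein-coding genes tested, the median log2 difference was 0.16 for 977 genes with 1 or 2 exons, 0.09 for 2540 genes with 3 to 5 and 0.01 for 3514 with 6 to 10. It was -0.05 for 2129 genes with 11 to 15 exons, -0.09 for 1110 with 16 to 20 and -0.15 for 1435 with more than 20. In the class of 3 to 5 exons, 24.0% of genes were higher in both cKO libraries and 10.8% lower, and this share stands beside the values of Zfp750, Hopx, Ovol1 and Klf4; its part in them was not tested.

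**Figure D5:**
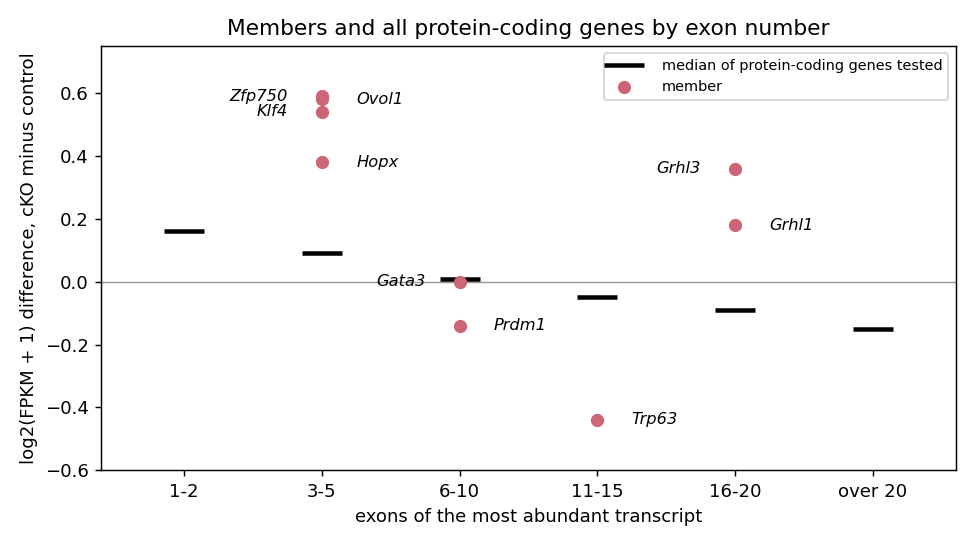
Difference in log2(FPKM + 1), cKO minus control, of the 9 genes against the number of exons of the most abundant transcript, in classes, with the median of all protein-coding genes tested in each class as black marks. The class medians run from 0.16 at 1 or 2 exons to -0.15 above 20, and Klf4, Ovol1, Hopx and Zfp750 all sit in the class of 3 to 5 exons, above its median of 0.09.

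Promoter windows of 250 bases from RefSeq (GRCm38.p6) were matched for 6 of the 9 genes, 8 windows in all. On both strands, the p53-family site stood in 5.8% of 32851 windows, the KLF4 box (GGTGTGG or GGCGTGG) in 13.4% and the Grainyhead-like core ACCGGTT in 0.8%. Among the 8 windows, that of Gata3 held the p53-family site 228 bases before the start and that of Prdm1 held a KLF4 box 78 bases before it. None held the Grainyhead-like core. Trp63, Ovol1 and Zfp750 had no window and were not searched. Whether a match goes with the difference between genotypes was not tested.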

How the data were processed

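The authors deposited 1 table of 110295 transcripts with a value per library, taken as FPKM because value times length, in kilobases, summed to 1015550 to 1021998 per library, while the header names no unit. Per the submitters' processing notes, fastp, HISAT2 and HTSeq and the build GRCm38 were used, with no roles given, and no source used here names the annotation release. The control columns are headed WT although the labels give K14Cre,Mettl14F/+. Per the labels' protocols, libraries came from total RNA with an NEBNext kit, by poly(A) selection or rRNA removal. Between 94.5% and 96.0% of low values equalled a whole number of reads within 0.2 reads, from which depths of 17361000 (control 1), 23369500 (control 2), 16884000 (cKO 1) and 25604500 (cKO 2) were implied. At 583 reads or more per gene and library, precision was set by the 2 libraries per group.

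Transcript values were summed per symbol, and 162 symbols turned into dates were looked up by transcript. Genes, and separately transcripts, with at least 1 FPKM in at least 2 libraries were tested on log2(FPKM + 1), which understates changes of low genes, with limma 3.58.1 in R 4.3.3 (mean-variance trend, genotype as the only term, 2 residual degrees of freedom) and Benjamini-Hochberg adjustment over all features at 0.05. The procedure was run on simulated data with noise independent between libraries. Same-numbered libraries shared no deviation there, so the simulation does not show how the test behaves on these libraries. Exons and sequences came from GENCODE M21, which held 98.04% of the transcripts, and promoters from RefSeq. The genes, lists and tests were chosen with earlier results of these data known. The genes named were the 9, Trp63 transcripts reaching 1 FPKM, the most abundant transcript of each other gene, Mettl14, the 4 genes of highest level in each list, the 2 of highest level in each marker list and the 3 profiles nearest to Trp63; other list genes with values are marked as chosen after their values were seen. Some marker genes that the rule names are given only within their list's sum. Alternatives were a pseudocount of 0.1, no filter, median-ratio scaling, a block on replicate number, limma-voom on recovered reads, the main transcript alone and removal of each library.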

Additional observations from a re-analysis of the deposited data

How the results depend on the processing

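No gene passed with a pseudocount of 0.1, no filter, median-ratio scaling, limma-voom or the main transcript alone; 7 to 52 genes and 59 to 145 transcripts passed when a library was left out, fits with 1 residual degree of freedom in which the lone library is assumed to vary like the others. With the replicate number as a block, 900 genes and 0 transcripts passed. The block brought 4 of the 9 genes past the threshold, beside 6.51% of all genes: Zfp750 (adjusted p = 0.0212, limma), Ovol1 (0.0246), Klf4 (0.0434) and Trp63 (0.0495), each with the same difference as without it. Same-numbered libraries deviated together (r = 0.722 across 13817 genes, which are not independent replicates), but the labels do not say what the numbers share. Klf4, Grhl1, Grhl3, Ovol1, Hopx, Zfp750, Trp63, Trp63-204 and Trp63-205 kept their direction under each alternative run. The difference reversed for Gata3 from -0.00080 to 0.00039 with a pseudocount of 0.1, to 0.035 with median-ratio scaling and to between -0.37 and 0.368 with a library left out. Left-out libraries also took Prdm1 from -0.301 to 0.020, Trp63-201 from -0.599 to 0.017, Trp63-203 from -1.175 to 0.011, Trp63-206 from -1.014 to 0.312 and the ΔN share difference from -2.13 to 1.55 percentage points; the cause was not tested. The 2 libraries a group set the precision of these comparisons.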
